A study of Homo sapiens with 32 samples.

Results

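The genes described here encode the nuclear part of the mitochondrial respiratory chain, whose proteins are made in the cytosol and imported into mitochondria. Members were taken by name: symbols of the NDUF, SDH, UQCR, COX and ATP5 families followed by the letters and numbers of a subunit. The rule found 148 of 62703 identifiers in the count matrices. Of these, 83 were genes, namely 36 of complex I, 4 of complex II, 9 of complex III, 15 of complex IV and 19 of complex V. The other 65 were pseudogenes by name, and none of them exceeded 21 reads in any library. NDUFA4 was placed under complex IV, where its protein is now assigned. COX4I1, NDUFAB1 and CYC1 are subunits whose symbols fall outside the rule.

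The samples were HEK293T cells, a human embryonic kidney line, grown without further treatment. All groups went through CRISPR/Cas9 transfection with non-integrating plasmids that carried sgRNAs and GFP. In 3 genotypes the sgRNAs targeted IGF2BP1, IGF2BP2 or IGF2BP3, which encode a family of RNA-binding proteins, and sorted single cells were grown into colonies that were screened for the protein. Each knockout was represented by 1 clone, so that a difference between clones and the loss of the gene cannot be told apart. The control received a non-targeting sgRNA in parallel, and whether it was a clone is not given in the sources used here. Total, nuclear and cytoplasmic poly(A) RNA were sequenced. Each RNA kind had 4 control libraries (batches 1 to 4) and 2 libraries per knockout, except for 4 cytoplasmic IGF2BP3 knockout libraries. The IGF2BP1 knockout came from batches 1 and 2 and the other knockouts from batches 3 and 4. Cytoplasmic IGF2BP3 knockout replicates 3 and 4 formed batch 5, which had no control. The labels do not say whether replicates were separate cultures, so that p-values measure the spread between these libraries only.

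The 32 libraries held 13689067 to 26119480 counted reads. The library labelled total RNA, IGF2BP1 knockout, replicate 2 was identical to the library labelled nuclear RNA, IGF2BP1 knockout, replicate 1 at all 62703 identifiers (21232940 reads). For total RNA of this knockout, the median of members and the calls per complex and of assembly factors are therefore given with and without it. In total, nuclear and cytoplasmic RNA, IGF2BP1 was at 5.31%, 6.34% and 5.16% of control in its knockout. IGF2BP2 was at 40.2%, 38.1% and 39.3% in its own knockout, and IGF2BP3 at 43.8%, 51.7% and 43.2%. The other family members changed as well. In total RNA of the IGF2BP2 knockout IGF2BP1 was at 74.7% and IGF2BP3 at 71.5% of control. In total RNA of the IGF2BP3 knockout IGF2BP1 was at 71.8% and IGF2BP2 at 89.7% (edgeR adjusted p = 0.275 for IGF2BP2). In cytoplasmic RNA of the IGF2BP1 knockout IGF2BP2 was at 105% and IGF2BP3 at 124%. The HEK293T markers VIM, NEFL, NEFM, KRT8, KRT18 and PAX2 were detected in every library. Levels are given as normalised CPM, read counts scaled to a common library size with TMM (trimmed mean of M values) factors. In total RNA these markers summed to 1028 to 1060.2 CPM in control, 692 to 731 in the IGF2BP1, 841 to 881 in the IGF2BP2 and 520.3 to 526 in the IGF2BP3 knockout, with no overlap between control and any knockout. Markers of blood cells summed to at most 1.04 CPM, with HBG1 at 0 in every library. Of the stromal markers, COL1A1 stood at 16.2 to 63.8 CPM, LUM and PDGFRB stayed below 1 CPM, and the list summed to 19.8 to 68.1 CPM, highest in total and nuclear RNA of the IGF2BP3 knockout. The part of these marker differences in the results was not tested.

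The respiratory chain passes electrons from NADH and succinate to oxygen and uses the energy to move protons across the inner mitochondrial membrane. Complex I oxidises NADH, complex II oxidises succinate, complex III passes electrons to cytochrome c, complex IV reduces oxygen, and complex V (ATP synthase) makes ATP from the returning protons. Apart from complex II, each complex joins subunits encoded in the nucleus with subunits encoded in mitochondrial DNA. The transcription factors NRF1, GABPA (an ETS factor) and YY1 are known regulators of many of the nuclear genes.

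Promoters were available from RefSeq (GRCh38.p14) for 64 of the 78 genes tested, in 76 windows of 250 bases before to 50 bases after the start site. The ETS motif (CCGGAAG, or CTTCCGG on the other strand) was in 21 of the 76 windows, or 27.6%, against 10.3% of 35116 windows of all genes. The YY1 motif (AAGATGGCG, or CGCCATCTT) was in 13.2% against 1.75%, and the palindromic NRF1 motif, the first run of capitals in the SDHD sequence, in 5.26% against 1.24%. No motif contains another. The 150 bases before the RefSeq start are printed for the genes that fell furthest in the IGF2BP2 knockout in complexes I, II, IV and V, for SDHD, which holds both an NRF1 and an ETS match, and for NDUFB2, which rose. Capitals mark motif matches, and each sequence is written 5′ to 3′ on the gene's strand. The windows are chr11:47578924-47579073 (plus strand), chr1:17054033-17054182 (minus), chr11:112086723-112086872 (plus), chr11:63974470-63974619 (plus), chr17:48892637-48892786 (plus) and chr7:140696558-140696707 (plus). Gene spans given elsewhere are those of GENCODE 29, which start further upstream and therefore include 138 of the 150 bases for SDHB, 100 for SDHD, 13 for COX8A, 22 for ATP5MC1 and all 150 for NDUFS3 and NDUFB2.
NDUFS3: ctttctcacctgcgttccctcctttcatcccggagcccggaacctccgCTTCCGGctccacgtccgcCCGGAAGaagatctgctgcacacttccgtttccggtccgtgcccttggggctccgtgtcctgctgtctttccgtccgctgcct
SDHB: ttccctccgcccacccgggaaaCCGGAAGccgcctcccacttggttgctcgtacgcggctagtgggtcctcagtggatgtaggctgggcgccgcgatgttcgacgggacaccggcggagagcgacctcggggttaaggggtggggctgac
SDHD: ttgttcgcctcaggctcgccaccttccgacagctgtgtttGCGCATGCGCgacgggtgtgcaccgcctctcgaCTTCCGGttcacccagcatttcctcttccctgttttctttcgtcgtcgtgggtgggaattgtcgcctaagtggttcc
COX8A: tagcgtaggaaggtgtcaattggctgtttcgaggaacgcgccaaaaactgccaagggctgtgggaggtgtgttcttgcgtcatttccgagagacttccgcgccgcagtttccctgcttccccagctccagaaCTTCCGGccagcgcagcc
ATP5MC1: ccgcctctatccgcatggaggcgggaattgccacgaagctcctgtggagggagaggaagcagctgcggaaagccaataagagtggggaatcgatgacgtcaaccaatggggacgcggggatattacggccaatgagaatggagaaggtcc
NDUFB2: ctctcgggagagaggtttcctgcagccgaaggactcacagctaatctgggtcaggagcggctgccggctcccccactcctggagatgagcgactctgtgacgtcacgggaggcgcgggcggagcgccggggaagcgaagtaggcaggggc
NDUFS3 held 2 ETS matches, SDHB, SDHD and COX8A 1 each, and ATP5MC1 and NDUFB2 none of the 3 motifs in these 150 bases. Among the 39 windows of genes that were lower in all 3 RNA kinds of the IGF2BP2 knockout, 15 held the ETS motif, against 6 of the 37 other windows. NRF1 matches were in 2 and 2 of these windows and YY1 matches in 5 and 5. A gene with more than 1 window counts more than once, and the 35116 windows were not limited to genes tested here. These are matches of letters in a window and not measured binding.

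Of the 83 genes, 78 were tested in each RNA kind: all 36 of complex I, 4 of complex II and 9 of complex III, with 11 of complex IV and 18 of complex V. COX6A2 and COX7B2 had no reads, COX7A1 had at most 1 read, and COX8C and ATP5MGL had at most 9. Each is an alternative form or a copy of another member. Their partners COX6A1, COX7A2, COX7B and COX8A had 129, 102, 145 and 130.2 normalised CPM on average in control total RNA. One pseudogene (ATP5F1EP2) also passed the filter in total and nuclear RNA, and UQCRBP1 joined it in cytoplasmic RNA, which gives 79, 79 and 80 members tested.

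Per kilobase of exon, the highest control level in total RNA was that of ATP5F1B, the catalytic beta subunit of ATP synthase, at 492 ± 43.8 CPM per kb (SD, n = 4). COX8A of complex IV followed at 257 ± 12.9 and NDUFS5 of complex I at 252 ± 27.3, which did not differ beyond their spread. NDUFB10 of complex I stood at 199 ± 5.53. In complex III the highest was UQCRH, a hinge protein beside cytochrome c1, at 137 ± 14.7. In complex II the iron-sulfur subunit SDHB led at 51.1 ± 4.32, ahead of SDHD at 24.8 ± 0.519. The membrane anchor SDHC, at 5.28 ± 0.267, and the flavoprotein SDHA, at 6.25 ± 0.28, were lowest in complex II by this measure. The divisor joins all annotated exons of a gene, so that the order also rests on the annotation. In CPM without this division SDHC was not below SDHD. The deposited FPKM were not used for this order, because they divide by the whole gene span with its introns. ATP5F1B alone held 11.2% to 12.3% of the members' counts in control total RNA.

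A few members had very few counted reads, which need not mean little RNA. NDUFV2, a core subunit of complex I, had 0.502, 0.721, 0.994 and 1.10 normalised CPM in the 4 control libraries of total RNA, and NDUFA7 had 1.41, 0.776, 1.29 and 1.41. Of the 11 complex IV genes tested, COX6B2, the testis form of COX6B1, was lowest at 0.547, 0.388, 1.04 and 0.428 CPM, against a mean of 104 ± 4.83 CPM (SD, n = 4) for COX6B1. UQCRHL, a gene nearly identical to UQCRH, had 2.69, 2.61, 2.98 and 4.04 CPM, against 184, 173, 195 and 221 for UQCRH, and reads between the pair could have been split or dropped by the counting. Exons of other genes on the same strand cover 28.4% of the NDUFV2 exons and 32.3% of those of NDUFA7, and their part in these low counts was not tested.

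**Figure D1:**
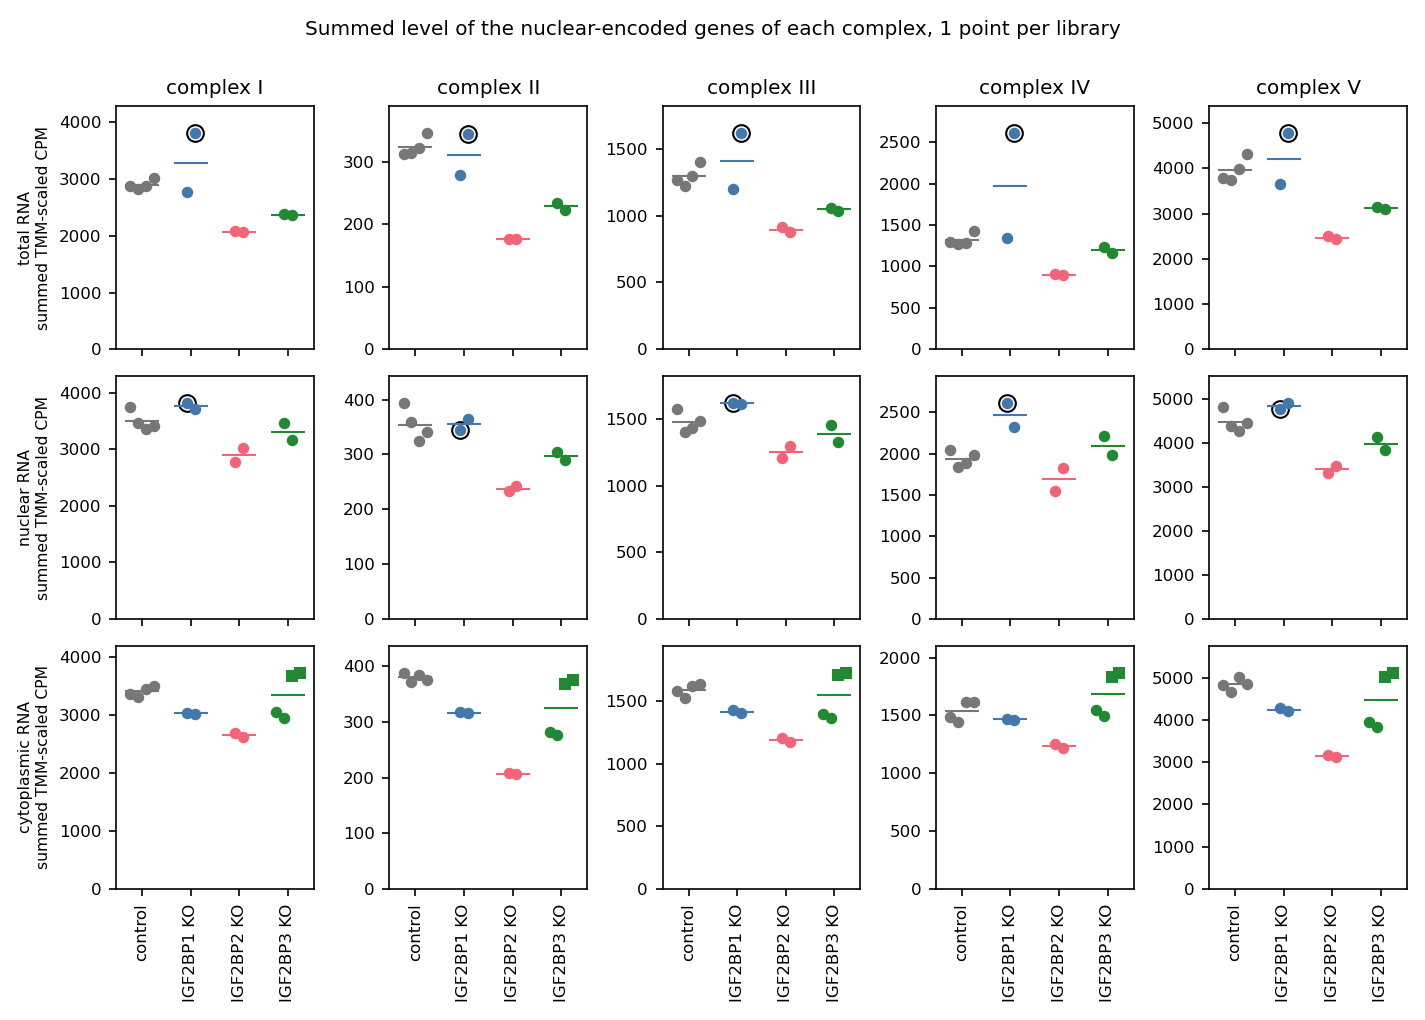
Summed normalised CPM of the nuclear-encoded genes of each complex (columns) in total, nuclear and cytoplasmic RNA (rows), with 1 point per library and a line at the group mean. Rings mark the library deposited under 2 labels, squares mark batch 5, and the IGF2BP2 knockout (red) lies below all 4 control libraries (grey) in every complex of total RNA.

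Summed over all members, the normalised level in total RNA was 9382 to 10524 CPM in the 4 control libraries and 6434 to 6588 CPM in the IGF2BP2 knockout. The IGF2BP3 knockout lay between them at 7888 to 8056 CPM. The IGF2BP1 knockout stood at 9239 CPM in replicate 1 and 13147 CPM in the library shared with nuclear RNA. In cytoplasmic RNA the control libraries held 11322 to 12076 CPM and the IGF2BP2 knockout 8324 to 8509 CPM. The IGF2BP3 knockout held 9916 to 10216 CPM in batches 3 and 4 and 12590.5 to 12806 CPM in batch 5, above every control library. In nuclear RNA the control held 11298 to 12591 CPM, the IGF2BP2 knockout 9109.5 to 9892 and the IGF2BP3 knockout 10609 to 11558, which overlapped the control. In bulk RNA, fewer cells of a kind and less RNA per cell cannot be told apart.

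Most members were lower in the IGF2BP2 knockout than in the control. In total RNA 61 of 79 members fell and 1 rose (edgeR, adjusted p under 0.05), with a median log2 fold change of -0.59, while 47% of all 18745 genes were called in either direction (23.7% lower). In cytoplasmic RNA 66 of 80 fell and 8 rose, with a median of -0.48, against 64.2% of all genes called (33.2% lower and 30.9% higher). In nuclear RNA 40 of 79 fell and 6 rose, with a median of -0.24, against 49.7% of all genes called (24.9% lower). The median of all genes tested was 0.02, 0.01 and 0.01 in total, cytoplasmic and nuclear RNA. Of 79 members tested in all 3 RNA kinds 40 fell in all 3 and only NDUFB2 rose in all 3, while 16.2% of the 17587 genes tested in all 3 kinds fell and 15.8% rose in all 3.

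**Figure D2:**
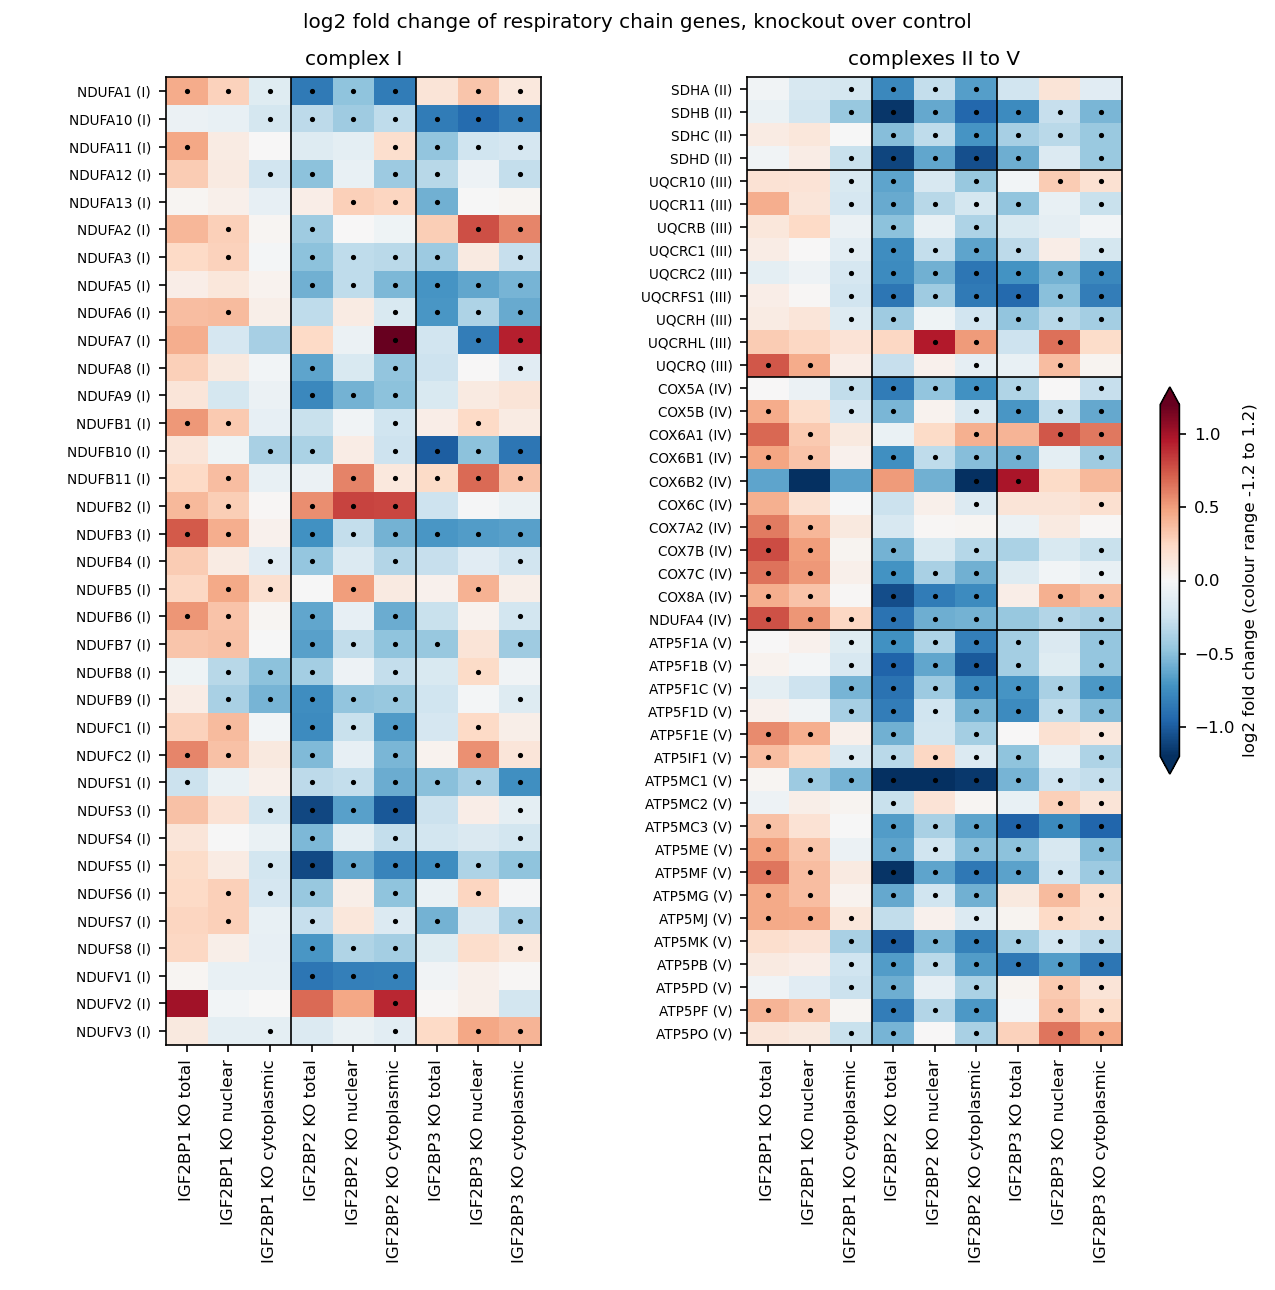
Fold changes of 77 of the 78 genes tested, in colour on a log2 scale, for each knockout against control in total, nuclear and cytoplasmic RNA, grouped by complex, with dots for adjusted p under 0.05. In the IGF2BP2 knockout most genes of every complex are below 0 in total and cytoplasmic RNA, with NDUFB2 among the exceptions.

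The size of these medians depends on the scaling. With plain library totals in place of TMM factors, an alternative added after the data were seen, the median of all genes moved to 0.20 in total, 0.10 in nuclear and 0.24 in cytoplasmic RNA of the IGF2BP2 knockout. The members then stood at medians of -0.40, -0.15 and -0.26, with 48, 26 and 49 called lower and 1, 8 and 13 called higher. The direction of the medians was the same under both scalings. Without control replicate 4 of total RNA 35 members were called and without IGF2BP2 knockout replicate 2 of total RNA 36, in place of 62. In nuclear RNA the 46 calls became 25 without control replicate 4 and 26 without IGF2BP2 knockout replicate 1. Leaving out the library with 2 labels gave 1 member higher and 68 lower in total RNA.

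By complex, the fall in total RNA covered all 4 genes of complex II (median log2 fold change -0.94) and 17 of 18 of complex V (median -0.67), while ATP5MJ missed the threshold (edgeR adjusted p = 0.0584). It covered 7 of 9 of complex III (median -0.60), 7 of 11 of complex IV (median -0.56) and 26 of 36 of complex I (median -0.48). In complex I, 6 of the 7 core subunits and 20 of the 29 accessory subunits fell. In nuclear RNA the medians of the 5 complexes were smaller in size, from -0.46 for complex II to -0.12 for complex I. All 5 subunits of the F1 head of ATP synthase and all 4 of its stalk fell in total and cytoplasmic RNA.

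Complex II, succinate dehydrogenase, is the only complex with no subunit encoded in mitochondrial DNA. SDHB, on chr1:17018722-17054170 (GRCh38, minus strand), had 116, 119, 129.6 and 139 CPM in the 4 control libraries of total RNA and 59.4 and 59.8 CPM in the IGF2BP2 knockout. The groups did not overlap, and the fall was 2.25-fold (log2 fold change -1.17 ± 0.11 SE, edgeR adjusted p = 5.09e-06). SDHB also fell in nuclear RNA, by 1.53-fold (adjusted p = 6.95e-07, edgeR), and in cytoplasmic RNA, by 1.92-fold (adjusted p = 4.05e-18). SDHD, which with SDHC anchors the enzyme in the membrane and binds ubiquinone, had 69.4, 70.7, 69.4 and 72.5 CPM in control and 34.0 and 32.2 CPM in the knockout. Its log2 fold changes were -1.10 ± 0.11 (SE) in total, -0.63 ± 0.10 in nuclear and -1.05 ± 0.05 in cytoplasmic RNA, each called by edgeR. SDHA, which binds the flavin cofactor, had 54.9, 50.0, 50.9 and 53.7 CPM in control and 30.4 and 30.5 CPM in the knockout, a log2 fold change of -0.78 ± 0.14 (SE). SDHC had 72.6, 74.8, 71.6 and 80.1 CPM in control and 52.7 and 53.9 CPM in the knockout, a log2 fold change of -0.51 ± 0.10. All 4 genes were lower in both knockout libraries than in every control library of total RNA. The share of all genes separated in this way was not counted, while 23.7% of all 18745 genes were called lower by edgeR. In nuclear RNA the calls of SDHA and SDHC were lost in some alternatives, with adjusted p values up to 0.16 and 0.151.

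Of the complex I genes that fell in all 3 RNA kinds, the one with the largest fall in total RNA was NDUFS3, a core subunit of the arm that carries the iron-sulfur clusters. NDUFS3 had 80.4, 77.0, 87.4 and 91.1 CPM in control total RNA and 42.8 and 40.8 CPM in the IGF2BP2 knockout, with no overlap. The log2 fold change was -1.09 ± 0.14 (SE) in total (edgeR adjusted p = 3.26e-05), -0.65 ± 0.09 in nuclear and -1.02 ± 0.05 in cytoplasmic RNA. Exons of PTPMT1 cover 19.6% of the NDUFS3 exons on the same strand, and their part in the counts was not tested. NDUFB2, an accessory subunit of the membrane arm, went the other way. It had 63.3, 62.0, 61.7 and 69.5 CPM in control and 97.6 and 94.9 CPM in the knockout, and rose 1.47-fold in total (edgeR adjusted p = 0.00281), 1.75-fold in nuclear and 1.74-fold in cytoplasmic RNA. Its call in total RNA was lost in some alternatives, with adjusted p up to 0.0938.

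UQCRFS1, the Rieske iron-sulfur protein of complex III, had 77.5, 72.7, 79.5 and 89.5 CPM in control total RNA and 45.7 and 46.8 CPM in the IGF2BP2 knockout. It fell 1.82-fold in total RNA (edgeR adjusted p = 7.48e-05), 1.35-fold in nuclear and 1.81-fold in cytoplasmic RNA. COX8A, a small membrane subunit of complex IV, had 133, 138, 124 and 126 CPM in control and 61.2 and 58.2 CPM in the knockout, and the groups did not overlap. It fell 2.09-fold in total (edgeR adjusted p = 2.04e-05), 1.79-fold in nuclear and 1.69-fold in cytoplasmic RNA. Another gene's exons cover 34.5% of the COX8A exons on the same strand, and their part in the counts was not tested.

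The c subunit, which forms the rotating ring of ATP synthase, is encoded by 3 genes, and their fold changes were unequal in the IGF2BP2 knockout. ATP5MC1 had 109, 101, 112 and 124 CPM in control total RNA and 39.0 and 38.3 CPM in the knockout. Its fall was the largest of all members in total RNA, 3.05-fold (log2 fold change -1.61 ± 0.16 SE, edgeR adjusted p = 4.64e-06), and it fell 2.35-fold in nuclear and 2.24-fold in cytoplasmic RNA. ATP5MC3 had 245, 250.2, 247 and 281 CPM in control and 167 and 164 CPM in the knockout. ATP5MC3 fell in all 3 RNA kinds, with log2 fold changes of -0.67, -0.39 and -0.63, although its nuclear call was lost in some alternatives (adjusted p up to 0.0796). ATP5MC2 had 242, 234, 210.5 and 213 CPM in control and 176 and 175 CPM in the knockout, a log2 fold change of -0.27 ± 0.09 (SE, edgeR adjusted p = 0.0235). In nuclear and cytoplasmic RNA ATP5MC2 stood at 0.16 ± 0.10 (adjusted p = 0.178) and 0.02 ± 0.04 (adjusted p = 0.647, edgeR). ATP5F1B, the most abundant member, had 1066, 1047, 1199 and 1256 CPM in control and 636 and 628 CPM in the knockout, a fall of 1.94-fold (edgeR adjusted p = 3.94e-06). ATP5IF1, the inhibitor that blocks ATP hydrolysis by the enzyme, was called in opposite directions: -0.33 ± 0.10 (SE) in total, 0.25 ± 0.10 in nuclear and -0.16 ± 0.04 in cytoplasmic RNA.

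The summed levels of nuclear-retained and of cytoplasmic RNA markers also moved in this knockout. The nuclear RNAs MALAT1, NEAT1, KCNQ1OT1, TUG1, SNHG1 and MEG3 (5 of 6 detected, MEG3 at or near 0) summed to 726 to 888 CPM in control total RNA. Their sum was 1329 to 1373 CPM in the IGF2BP2 knockout and 1650.1 to 1912 CPM in the IGF2BP3 knockout. This sum joins RNAs of unequal level. Over all total RNA libraries NEAT1 ran from 150 to 918 CPM, TUG1 from 291 to 443 and KCNQ1OT1 from 11.2 to 36.0. The cytoplasmic markers GAPDH, ACTB, EEF1A1, RPLP0, TUBA1B and ENO1 (6 of 6 detected) summed to 13655 to 14618 CPM in control, 9349.6 to 9461 CPM in the IGF2BP2 knockout and 8699 to 9071 CPM in the IGF2BP3 knockout. In cytoplasmic RNA the nuclear markers summed to 409 to 455 CPM in control, 1072 to 1098 CPM in the IGF2BP2 knockout and 1048 to 1072 CPM in batches 3 and 4 of the IGF2BP3 knockout. The part of these shifts in the members' fold changes was not tested.

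In the IGF2BP3 knockout more members fell than rose in total and cytoplasmic RNA, and nuclear RNA was split between both directions. In total RNA 36 of 79 members fell and 2 rose, with a median log2 fold change of -0.27, against 46.9% of all genes called (23.4% lower). In nuclear RNA 24 of 79 fell and 21 rose, with a median of -0.02, against 50.4% of all genes called (25.3% lower and 25.1% higher), a split close to that of all genes. In cytoplasmic RNA 44 of 80 fell and 18 rose, with a median of -0.21, against 64.7% of all genes called (33.2% lower). Of the 79 members tested in all 3 RNA kinds 22 fell in all 3 and NDUFB11 rose in all 3, while 18% of all genes fell and 17.1% rose in all 3. The other gene that rose in total RNA was COX6B2, which is below 2 CPM and was named after its values were seen. With plain library totals the total RNA calls were 22 lower and 5 higher (median -0.05). The nuclear calls turned to 28 higher and 13 lower (median 0.11) and the cytoplasmic calls to 35 higher and 27 lower (median 0.06), while the medians of all genes were 0.23, 0.13 and 0.29. Upper quartile scaling gave 26 higher and 16 lower in nuclear and 28 higher and 33 lower in cytoplasmic RNA, so that the direction of the split in the fractions rests on the scaling. Without a batch term the cytoplasmic calls were 23 higher and 18 lower, which draws batch 5 into the group mean. The 38 calls in total RNA became 18 without control replicate 4, 21 without IGF2BP3 knockout replicate 2, and 59 without either IGF2BP1 knockout library. The 45 nuclear calls became 22, 25 and 28 without control replicate 3, control replicate 4 and IGF2BP3 knockout replicate 1.

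**Figure D3:**
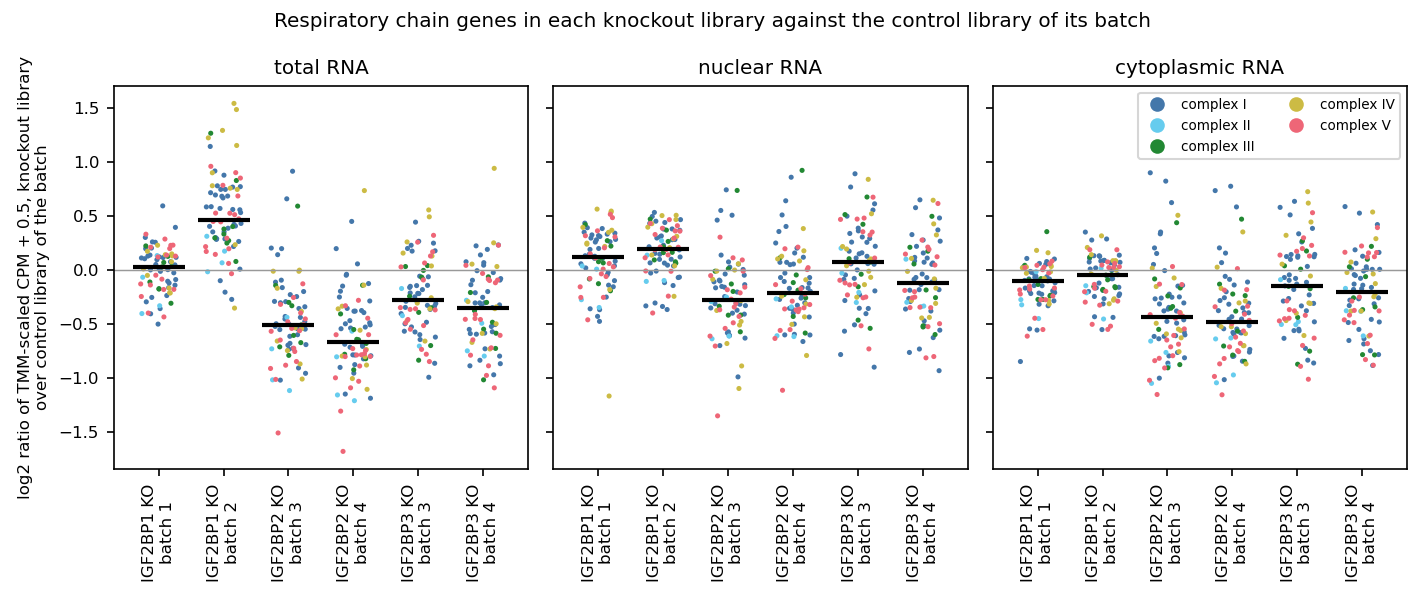
Each point is a gene's log2 ratio of normalised CPM (0.5 added) in a knockout library over the control library of the same batch, coloured by complex, with a black line at the median. The medians of the IGF2BP2 knockout lie between -0.51 and -0.67 in total RNA, whereas the IGF2BP1 knockout in total RNA stands at 0.03 in batch 1 and 0.46 in batch 2.

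By complex, the fall in total RNA of the IGF2BP3 knockout covered 14 of 36 genes of complex I, 3 of 4 of complex II, 5 of 9 of complex III, 3 of 11 of complex IV and 11 of 18 of complex V. All 4 complex II genes had log2 fold changes below 0 in total RNA of the IGF2BP3 knockout, and 3 passed the test. SDHB had 79.2 and 79.8 CPM there, against 116, 119, 129.6 and 139 CPM in control, a fall of 1.69-fold (edgeR adjusted p = 0.000139). SDHD had 51.6 and 42.9 CPM, a log2 fold change of -0.59 ± 0.10 (SE), and SDHC had 58.4 and 56.7 CPM, a log2 fold change of -0.40 ± 0.10. SDHA, at 45.1 and 44.1 CPM, did not pass (log2 fold change -0.23 ± 0.14, edgeR adjusted p = 0.193). In nuclear RNA SDHB and SDHC fell, by 1.21-fold and 1.25-fold, while SDHD (-0.16 ± 0.09) and SDHA (0.15 ± 0.09) did not pass.

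NDUFB10, an accessory subunit of the complex I membrane arm, fell most of the complex I genes called lower in all 3 RNA kinds. It had 219, 214, 205 and 212 CPM in control total RNA and 103 and 108 CPM in the IGF2BP3 knockout, a fall of 1.98-fold (edgeR adjusted p = 1.68e-05), and it fell 1.40-fold in nuclear and 1.82-fold in cytoplasmic RNA. NDUFB11, another accessory subunit of that arm, had 99.6, 85.9, 86.1 and 90.3 CPM in control nuclear RNA and 147 and 135 CPM in the knockout. It rose 1.60-fold in nuclear RNA (edgeR adjusted p = 8.56e-08), 1.26-fold in cytoplasmic and 1.17-fold in total RNA (edgeR adjusted p = 0.0499). The call in total RNA lies at the threshold and was lost in some alternatives, with adjusted p up to 0.311.

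UQCRFS1 had 44.3 and 43.9 CPM in total RNA of the IGF2BP3 knockout, against 77.5, 72.7, 79.5 and 89.5 CPM in control, a fall of 1.91-fold (edgeR adjusted p = 4.03e-05). COX5B, a zinc-binding subunit on the matrix side of complex IV, had 74.1 and 75.0 CPM, against 123, 125, 117 and 125 CPM in control. COX5B fell 1.62-fold in total RNA (edgeR adjusted p = 0.000476), 1.22-fold in nuclear and 1.53-fold in cytoplasmic RNA, with the nuclear call lost in some alternatives (adjusted p up to 0.52). COX8A did not pass in total RNA at 135 and 128 CPM (log2 fold change 0.08 ± 0.12 SE), and rose in nuclear (0.42 ± 0.10) and cytoplasmic RNA (0.36 ± 0.04).

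Of the c subunit genes, ATP5MC3 fell furthest in the IGF2BP3 knockout, from 245, 250.2, 247 and 281 CPM in control total RNA to 137 and 132 CPM. Its fall was 1.96-fold in total (edgeR adjusted p = 6.92e-06), 1.70-fold in nuclear and 1.93-fold in cytoplasmic RNA. ATP5MC1 had 81.3 and 79.0 CPM, a log2 fold change of -0.56 ± 0.15 (SE, edgeR adjusted p = 0.00816), and its calls were lost in some alternatives in every RNA kind. ATP5MC2 did not pass in total RNA (-0.09 ± 0.09) and rose in nuclear (0.28 ± 0.10) and cytoplasmic RNA (0.16 ± 0.04). In the stalk of ATP synthase 3 of 4 genes rose and 1 fell in nuclear and in cytoplasmic RNA, while in the F1 head 4 of 5 fell and 1 rose in cytoplasmic RNA.

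In the IGF2BP1 knockout more members rose than fell in nuclear RNA, and more fell than rose in cytoplasmic RNA. The rise in total RNA rests on the library with 2 labels. Set against the control library of its batch, 35 of 78 genes lay below 0 in replicate 1 and 6 of 78 in the library with 2 labels. In total RNA 23 of 79 members rose and 2 fell, with a median log2 fold change of 0.24, against 24.2% of all genes called (10.7% higher). Without the library with 2 labels, the remaining knockout library gave a median of 0.03. With the library with 2 labels as the only knockout library the median was 0.47. A lone library is assumed to vary like the other groups. In nuclear RNA 29 of 79 rose and 3 fell, with a median of 0.14, against 25.7% of all genes called (12.7% higher). Leaving out nuclear replicate 1, the shared library, gave a median of 0.20, and leaving out replicate 2 gave a median of 0.11. In cytoplasmic RNA 33 of 80 fell and 3 rose, with a median of -0.09, against 44.4% of all genes called (21.9% lower). With plain library totals the cytoplasmic calls were 23 lower and 15 higher (median -0.02).

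The 25 calls in total RNA also became 61 without control replicate 1, 13 without control replicate 2 and 14 without either IGF2BP2 knockout library. In complex IV 7 of 11 genes were higher in total RNA and 0 lower (9 at an unadjusted p under 0.05), and 7 were higher and 0 lower in nuclear RNA. Summed over complex IV, replicate 1 stood at 1341 CPM, inside the control range of 1265 to 1423 CPM, and the shared library at 2606 CPM. In nuclear RNA, normalised within its kind, complex IV summed to 1835 to 2050 CPM in control and 2318 CPM in replicate 2 of this knockout. Which label of the shared library is right is not known. Without the shared library 0 of the 11 genes were called in total RNA by edgeR (2 at an unadjusted p under 0.05), so that the complex IV calls in total RNA rest on it, while 6 were higher and 0 lower in nuclear RNA without it. None of the 4 complex II genes was called in total or nuclear RNA by edgeR (0 and 2 at an unadjusted p under 0.05), whereas 3 of 4 fell in cytoplasmic RNA. Without the shared library SDHA (-0.40) and SDHB (-0.33) were called lower in total RNA. Of the other complexes, complex I then had 1 gene higher and 4 lower, complex III 0 and 1, and complex V 2 and 3. SDHB had 115 and 110.5 CPM in cytoplasmic RNA of the IGF2BP1 knockout, against 157, 152, 144 and 149.5 CPM in control, a fall of 1.37-fold (edgeR adjusted p = 5.14e-10).

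NDUFA4 and ATP5MJ were the members called higher in all 3 RNA kinds, against 4.22% of all genes, and their calls in total RNA rest on the shared library. NDUFA4, a subunit of complex IV, had 106, 106, 110.3 and 126 CPM in control total RNA, 124 CPM in replicate 1 of the IGF2BP1 knockout and 259 CPM in the shared library. Replicate 1 lay inside the control range, and without the shared library NDUFA4 missed the threshold (log2 fold change 0.23 ± 0.09 SE, edgeR adjusted p = 0.0789). In cytoplasmic RNA it had 116, 111, 126 and 119 CPM in control and 131 and 138 CPM in the knockout, with no overlap, and rose 1.19-fold (edgeR adjusted p = 2.03e-05). Its nuclear rise was 1.45-fold (edgeR adjusted p = 3.41e-05). ATP5MJ, a small membrane protein of ATP synthase, rose 1.36-fold in nuclear RNA, from 104, 102, 106 and 115 CPM to 146 and 136 CPM, and 1.10-fold in cytoplasmic RNA (edgeR adjusted p = 0.0143). In total RNA ATP5MJ had 87.6, 90.3, 86.2 and 98.2 CPM in control, 103 CPM in replicate 1 and 145 CPM in the shared library, without which it missed the threshold (0.23 ± 0.10 SE, edgeR adjusted p = 0.0884). The cytoplasmic calls of both genes were lost in some alternatives. ATP5MC1 fell in nuclear (-0.43 ± 0.09) and cytoplasmic RNA (-0.56 ± 0.04) and stood at 0.03 ± 0.15 in total RNA, or at -0.40 ± 0.09 without the shared library, where it was called lower. Between RNA kinds of this knockout 4 members were called in opposite directions, namely ATP5IF1, COX5B, NDUFA1 and NDUFS6, and the share of all genes was not counted. Of these, NDUFA1 and NDUFS6 were called higher in nuclear RNA (0.27 and 0.29) and lower in cytoplasmic RNA (-0.15 and -0.20). Without the shared library NDUFS6 was still called higher in nuclear RNA (0.38), and NDUFA1 was not (0.23, edgeR adjusted p = 0.14).

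The IGF2BP3 and IGF2BP2 knockouts were then compared directly, within batches 3 and 4. In total RNA 34 of 79 members were higher in the IGF2BP3 knockout and 7 lower, with a median log2 difference of 0.32, against 43.3% of all genes called (21.8% higher). In nuclear RNA 36 of 79 were higher and 13 lower (median 0.20), against 48.2% of all genes called (24.1% higher). In cytoplasmic RNA 49 of 80 were higher and 14 lower (median 0.25), against 62.7% of all genes called (31.3% higher). Plain library totals gave 38 higher and 6 lower, 40 and 12, and 52 and 14. The 41 calls in total RNA became 20, 21, 20 and 25 when either IGF2BP2 or either IGF2BP3 knockout library was left out, and 62 or 63 without either control library of batches 1 and 2 or either IGF2BP1 knockout library. The 49 nuclear calls became 32 without IGF2BP3 knockout replicate 1.

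**Figure D4:**
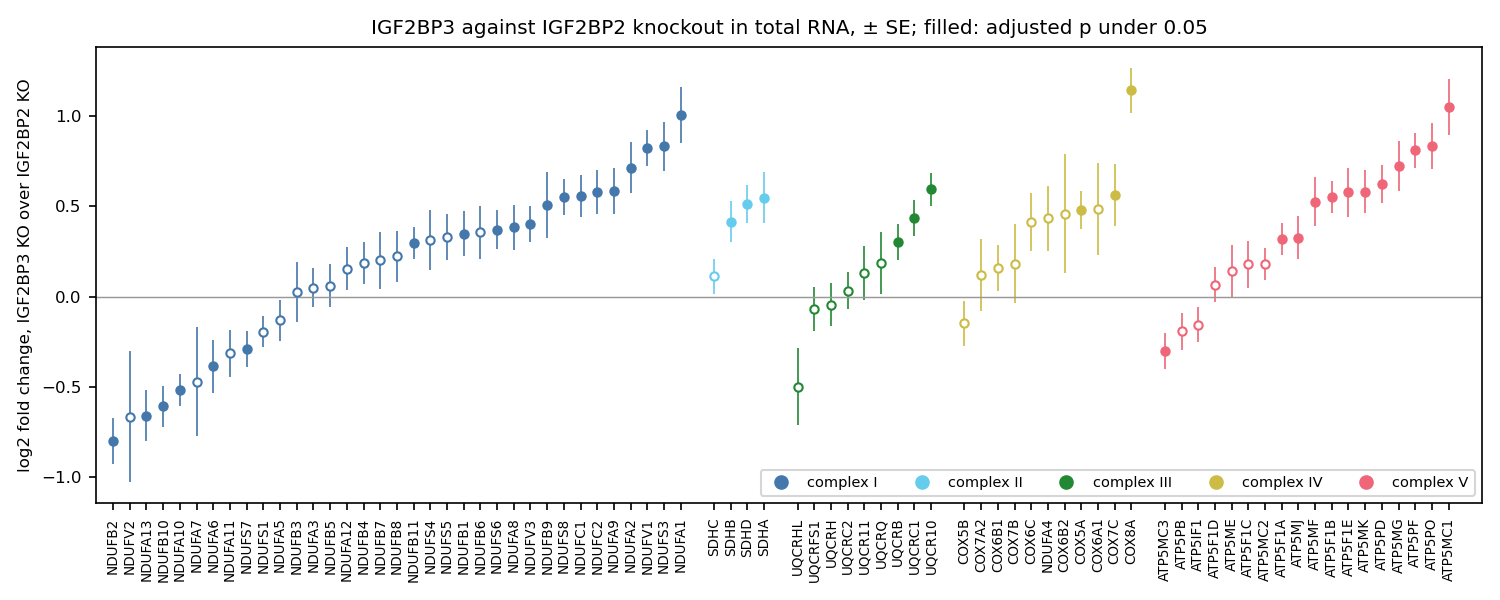
Log2 fold change with standard error of 77 of the 78 genes tested in the IGF2BP3 knockout against the IGF2BP2 knockout in total RNA, grouped by complex, with filled points for adjusted p under 0.05. Of the genes called, COX8A (1.14) and ATP5MC1 (1.05) are the highest and NDUFB2 (-0.80) and NDUFA13 (-0.66) the lowest.

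COX8A was the gene with the largest difference called in total RNA, at 135 and 128 CPM in the IGF2BP3 knockout and 61.2 and 58.2 CPM in the IGF2BP2 knockout. The difference was 2.21-fold in total (edgeR adjusted p = 1.44e-05), 2.40-fold in nuclear and 2.17-fold in cytoplasmic RNA. ATP5MC1 stood at 81.3 and 79.0 CPM in total RNA of the IGF2BP3 knockout and 39.0 and 38.3 CPM in that of the IGF2BP2 knockout, a 2.07-fold difference (edgeR adjusted p = 0.000144). NDUFB2 was 1.74-fold lower (edgeR adjusted p = 0.00024), at 55.7 and 54.8 CPM against 97.6 and 94.9 CPM. NDUFA13, an accessory subunit of complex I, was 1.58-fold lower in total RNA (edgeR adjusted p = 0.00213). Exons of other genes cover 21% of the NDUFA13 exons on the same strand, and their part was not tested. SDHB was 1.33-fold higher (edgeR adjusted p = 0.0101), and SDHC did not differ past the threshold in total RNA (log2 difference 0.11 ± 0.10 SE) but did in cytoplasmic RNA (0.26 ± 0.05). Of the 4 stalk genes of ATP synthase, 3 were higher in the IGF2BP3 knockout, with a median log2 difference of 0.72.

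In control cells, members of different complexes stood at different levels in nuclear relative to cytoplasmic RNA. Markers of each fraction were found in both. The cytoplasmic markers summed to 11667 to 14948 CPM in nuclear and 16829 to 17688 CPM in cytoplasmic control RNA. The nuclear markers summed to 767 to 1094 CPM and 409 to 455 CPM, each normalised within its RNA kind. The part of this incomplete separation in the ratios was not tested. Of 79 members tested, 37 were lower and 16 higher in nuclear than in cytoplasmic RNA, with a median log2 fold change of -0.12, against 65.9% of all 16246 genes called (33.3% lower and 32.6% higher). In complex V 14 of 18 genes were lower in nuclear RNA and 1 higher, whereas in complex IV 5 of 11 were higher and 2 lower. With plain library totals the members split into 28 higher and 24 lower (median 0.02), while the median of all genes was 0.12, so that the direction of the members' split rests on the scaling.

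**Figure D5:**
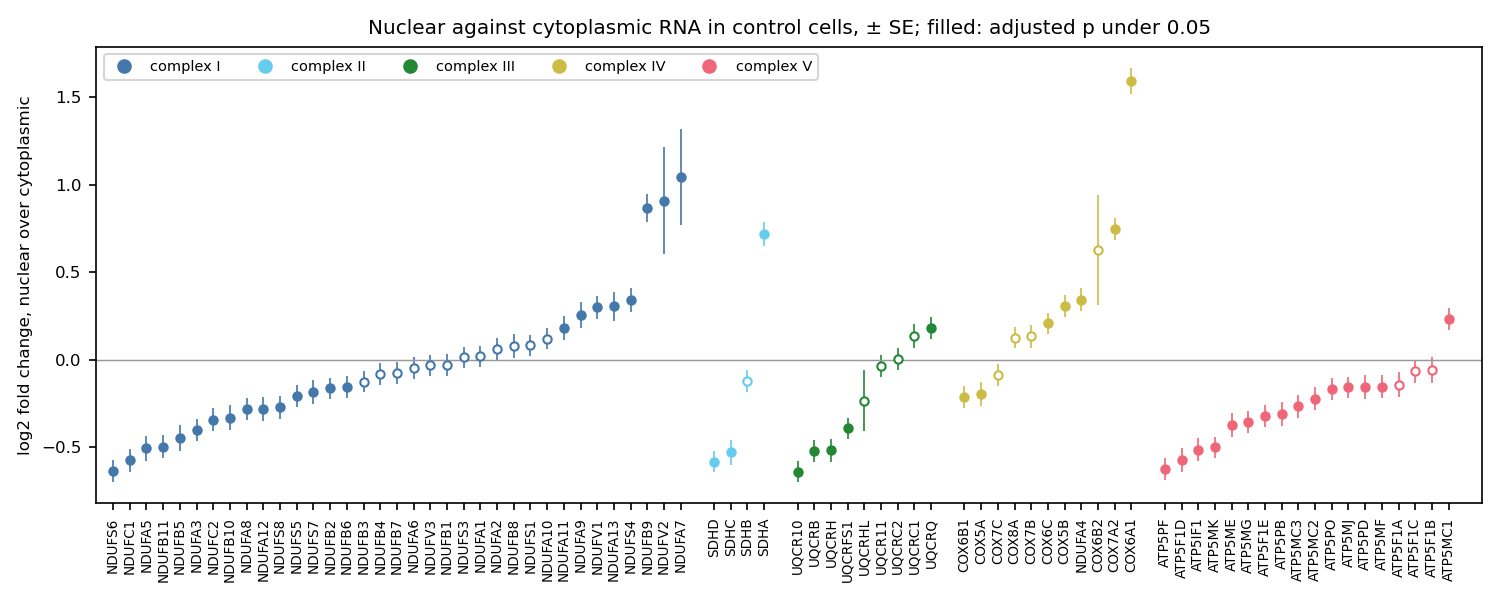
Log2 fold change with standard error of nuclear against cytoplasmic RNA in control cells for 77 of the 78 genes tested, ordered within its complex, with filled points for adjusted p under 0.05. COX6A1 stands highest at 1.59, and 17 of 18 complex V genes lie below 0.

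COX6A1, the form of this complex IV subunit used outside heart and muscle, had 301, 273, 269 and 276 CPM in the 4 nuclear control libraries and 75.5, 82.6, 93.4 and 100.5 CPM in the cytoplasmic ones. Its nuclear level was 3.01-fold higher in the joint fit of both fractions (edgeR adjusted p = 1.27e-14). Another gene's exons cover 13% of the COX6A1 exons on the same strand, and their part was not tested. NDUFA7 (1.04 ± 0.27 SE) and NDUFV2 (0.91 ± 0.30 SE) followed on the log2 scale, both below 2 CPM in every control library. The lowest were UQCR10 of complex III (-0.64 ± 0.06), NDUFS6 of complex I (-0.63 ± 0.06) and ATP5PF of the ATP synthase stalk (-0.62 ± 0.06). Within complex II, SDHA was higher in nuclear RNA (0.72 ± 0.07), SDHC (-0.53 ± 0.07) and SDHD (-0.58 ± 0.06) were lower, and SDHB did not pass (-0.12 ± 0.06, edgeR adjusted p = 0.0969).

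Whether a knockout moved this nuclear to cytoplasmic ratio was tested as an interaction within batches 1 to 4. In the IGF2BP1 knockout the ratio rose for 21 of 80 members and fell for 0, with a median log2 change of 0.30, against 4.11% of all 19310 genes called (2.36% higher and 1.76% lower). There were 48 members at an unadjusted p under 0.05. DESeq2 called 2 members and library totals 7. Without nuclear IGF2BP1 knockout replicate 1 (the shared library) or 2 the medians were 0.27 and 0.23, and few or no members were called. Calls among all genes dropped as well in these fits, each with 1 nuclear library of this knockout. Few or no members were likewise called without cytoplasmic IGF2BP1 knockout replicate 1 or 2. The counts were 7 and 0 without replicates 1 and 2 of either control fraction. Without IGF2BP3 knockout libraries of batches 3 and 4 the counts were 6 to 9. ATP5MK, a small membrane protein of ATP synthase, had the largest rise (0.56 ± 0.11 SE, edgeR adjusted p = 0.000632), followed by NDUFS6 (0.51 ± 0.12 SE). By complex, 9 of 36 genes of complex I, 1 of 4 of complex II, 2 of 9 of complex III, 3 of 11 of complex IV and 6 of 18 of complex V were called.

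In the IGF2BP2 knockout the ratio rose for 17 of 80 members and fell for 1, with a median of 0.21, against 17.5% of all genes called (7.77% higher and 9.71% lower). NDUFS6 had 58.3 and 58.9 CPM in nuclear and 62.8 and 60.4 CPM in cytoplasmic RNA of this knockout, against 66.7, 61.9, 55.4 and 56.8 and 89.0, 91.2, 81.1 and 90.5 CPM in control. Its ratio rose by 0.50 ± 0.12 on the log2 scale (SE, edgeR adjusted p = 0.000935), followed by NDUFB6 (0.45 ± 0.12), and that of NDUFA11 fell (-0.37 ± 0.13). In complex II the ratio rose for SDHA (0.33 ± 0.12), SDHC (0.36 ± 0.12) and SDHD (0.39 ± 0.12), and SDHB did not pass (0.28 ± 0.11, edgeR adjusted p = 0.0744). DESeq2 called 2 members, library totals gave 4 higher and 2 lower, and leaving out control replicate 3 or 4 of either fraction gave 2 or 4. Leaving out IGF2BP2 knockout replicate 1 or 2 of either fraction gave 11 or 2, and 11 were called without cytoplasmic IGF2BP3 knockout replicate 1.

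In the IGF2BP3 knockout the ratio rose for NDUFB7 (0.51 ± 0.12 SE, edgeR adjusted p = 0.00062) and NDUFC2 (0.35 ± 0.12) and fell for NDUFA7 (-1.81 ± 0.56), against 10.9% of all genes called (4.07% higher and 6.8% lower). These 3 of 80 calls ranged from 0 to 7 when a library was left out: 0 without IGF2BP3 knockout replicate 1 of either fraction, 1 without a control library of batch 3 or 4, and 6 or 7 without any other knockout library. NDUFA7 was below 2 CPM in every library.

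The cytoplasmic libraries of batch 5 stood apart from the other IGF2BP3 knockout libraries. Of 80 members 69 were higher in batch 5 than in batches 3 and 4 and 2 were lower, with a median log2 difference of 0.34, against 55% of all genes called (28.5% higher). All 18 complex V genes, all 4 of complex II, 8 of 9 of complex III and 30 of 36 of complex I were higher. NDUFS6 had 140.1 and 141 CPM in batch 5 and 88.7 and 81.9 CPM in batches 3 and 4, a 1.65-fold difference (edgeR adjusted p = 5.65e-14). ATP5MC1 had 171 and 177 CPM in batch 5 and 108 and 105 CPM in batches 3 and 4, a 1.64-fold difference. COX6A1 (-0.13 ± 0.04) and COX6B2 (-1.03 ± 0.40), the latter below 1 CPM, were lower. With plain library totals 50 were higher and 5 lower. The nuclear RNA markers summed to 616 to 661 CPM in batch 5 and 1048 to 1072 CPM in batches 3 and 4, and their part in the difference was not tested. Because batch 5 had no control, its libraries added no information on the size of the knockout effect in the fit with a batch term. They did enter the estimate of spread behind the cytoplasmic p-values.

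Among control libraries of total RNA, no member was called between batches 3 and 4 and batches 1 and 2 (edgeR, 0 of 79, with 4 at an unadjusted p under 0.05), against 2.97% of all genes called (1.54% higher and 1.42% lower). DESeq2 and limma also called 0. The spread came from all total RNA libraries, with IGF2BP1 knockout replicate 2 (the library with 2 labels) among them. The 0 calls therefore do not show that the control batches were alike. The count was 46 without control replicate 1, 23 without control replicate 2, and 19 or 18 without IGF2BP1 knockout replicate 1 or 2.

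Other genes of the pathway were taken from fixed lists, and the shares of all genes called stand beside their counts. In total RNA 23.7% of all genes fell and 23.3% rose in the IGF2BP2 knockout, and 23.4% fell and 23.5% rose in the IGF2BP3 knockout. Of 56 assembly factors, which help to build the complexes, 32 fell and 4 rose in total RNA of the IGF2BP2 knockout (median log2 fold change -0.34), and 24 fell and 5 rose in the IGF2BP3 knockout (median -0.23). COA4 (-1.08) and COX15 (-0.98), both of complex IV assembly, fell in all 3 RNA kinds of the IGF2BP2 knockout, and SURF1 of the same complex rose (0.84). In the IGF2BP3 knockout SCO2, a copper chaperone of complex IV, fell (-1.09). In the IGF2BP1 knockout 9 of the 56 fell and 6 rose in total RNA, against 13.5% and 10.7% of all genes. Without the shared library 13 fell and 3 rose, against 11.7% and 9.05%. COX10, which makes heme for complex IV, fell with that library (-1.10) and without it (-0.82). Of the 8 tested subunits outside the name rule, 6 fell and 1 rose in total RNA of both the IGF2BP2 and the IGF2BP3 knockout. CYC1, cytochrome c1 of complex III, changed by -1.06 and -0.87, and NDUFA4L2, an isoform of NDUFA4, by 1.65 and 0.81.

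Of 13 regulators of respiratory genes, 8 fell and 2 rose in total RNA of the IGF2BP2 knockout and 8 fell and 1 rose in the IGF2BP3 knockout. ESRRA, a nuclear receptor that acts with the PGC-1 coactivators, fell in the IGF2BP2 knockout (-1.02 in the cytoplasmic fraction), and TFB2M, a mitochondrial transcription factor, fell in the IGF2BP3 knockout (-1.65 in total RNA). PPARGC1A, which encodes PGC-1alpha, rose in both, by 2.27 and 2.92 on the log2 scale. It had 0.61 to 1.09 CPM in control total RNA, 4.65 to 5.14 CPM in the IGF2BP2 knockout and 7.36 to 7.97 CPM in the IGF2BP3 knockout. YY1 had 175 to 228 CPM in control total RNA, 262 to 266 in the IGF2BP2 and 204 to 206 in the IGF2BP3 knockout. In the same order GABPA had 64.3 to 80.2, 62.2 to 64.5 and 78.0 to 88.2 CPM. NRF1 had 33.5 to 37.2, 30.0 to 30.3 and 24.8 to 26.6 CPM. The part of these regulators in the members' fold changes was not tested. Of the 13 subunits encoded in mitochondrial DNA, 5 fell and 0 rose in total RNA of the IGF2BP2 knockout (median -0.26). In nuclear RNA of the IGF2BP3 knockout all 13 rose (median 0.73), against 25.1% of all genes, where they held 3.21 to 3.41% of reads against 1.69 to 2.01% in control. Cytosolic ribosomal protein genes, another large group of highly expressed genes, fell in 50 of 82 cases and rose in 2 in total RNA of the IGF2BP2 knockout (median -0.32), and in 64 and 2 of 82 in the IGF2BP3 knockout (median -0.45).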

How the data were processed

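Poly(A) RNA-seq was analysed from 32 libraries of 12 groups in 3 RNA kinds. The deposited counts are whole reads per gene, and the submitters' processing notes name STAR, featureCounts, DESeq2 1.44.0 and GRCh38 with no role or order. Whether counting used strand is not given in the sources used here. The deposited FPKM divide by the whole gene span, as tested on the files, and served one alternative only. Gene positions and exon lengths came from GENCODE 29 (GRCh38).

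Each RNA kind was fitted over all its libraries with edgeR 4.0.16 (R 4.3.3): TMM factors, low-count genes removed with filterByExpr, genotype and batch terms, the quasi-likelihood test and Benjamini-Hochberg adjustment over all genes, with calls at an adjusted p under 0.05. Batch, a label that knockout and control libraries share, supplies the pairing. The nuclear to cytoplasmic ratio was an interaction term in 1 fit of batches 1 to 4. Identifiers with no gene name (20403, holding 0.349% to 0.713% of reads) were not removed. Those that passed the low-count filter entered the fits and count among all genes tested. Data were simulated for the IGF2BP2 contrast of total RNA with 200 genes changed (17954 genes run). Of genes set to a log2 change of -1 and 1, 74.5% and 86% were called, and 33.3% and 30% at -0.5 and 0.5. In the real contrast 47% of all genes were called, so that these shares need not hold there.

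Members and gene lists were chosen with earlier results of these data known. Named were, per knockout and complex, the gene that fell and the gene that rose most among those called in all 3 RNA kinds, all complex II genes, alternative forms of one subunit, extremes of control level and the extremes of the other contrasts. One read was worth 0.0383 to 0.0731 CPM. Alternatives were other scalings, DESeq2 1.42.0, limma 3.58.1 on log2(FPKM + 1), other filters, no batch term, fewer batches and each library left out. The values of 1 member are not reported here by name, and it counts in every total.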

Additional observations from a re-analysis of the deposited data

Results flagged for a closer look

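Effects differed between the IGF2BP3 and IGF2BP2 knockouts by a direct test (edgeR) for 41 members of 79 in total, 49 of 79 in nuclear and 63 of 80 in cytoplasmic RNA, against 43.3%, 48.2% and 62.7% of all genes tested. The nuclear and cytoplasmic effects of a knockout differed, by the interaction test (edgeR), for 21 of 80 members in the IGF2BP1 knockout, 18 in the IGF2BP2 knockout and 3 in the IGF2BP3 knockout, against 4.11%, 17.5% and 10.9% of all genes. In the 4 control libraries of each RNA kind, no library's summed level of a complex lay far enough from the others to pass Dixon's test. The 4 cytoplasmic IGF2BP3 knockout libraries split by batch into 2 and 2, a layout in which this test of a single library cannot pass, so that it says nothing about them.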

How the results depend on the processing

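Of 2719 values of single genes recomputed under the alternatives, 2451 kept direction and call, 265 kept direction and lost the call, and 3 turned. ATP5MC1 (log2 fold change 0.0725) and COX7B (0.0318) turned in cytoplasmic RNA of the IGF2BP3 knockout with no replicate block, that is no batch term, and COX7B (0.00059) with library totals, and the cause was not tested. Batch 5 enters the group mean only without the block.

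With limma on FPKM, the counts of members called were 3, 39 and 27 in total RNA for the IGF2BP1 knockout, the IGF2BP2 knockout and the IGF2BP3 against the IGF2BP2 knockout, and 6, 29 and 25 in nuclear RNA for the 3 knockouts. With only its own batches the IGF2BP1 knockout gave 14 in total RNA, and without a filter the control batches gave 1. Without the block, the pairing by batch, cytoplasmic counts were 8 for the IGF2BP1 and 41 for the IGF2BP3 knockout, and ratio counts were 4 for the IGF2BP2 and 1 for the IGF2BP3 knockout. DESeq2 gave 2, 2 and 1 for the 3 ratios. The IGF2BP1 ratio gave 11 with RLE factors, 7 without a filter and 7 with library totals, and the IGF2BP2 ratio 10 with upper quartile factors and 6 with library totals. The cause of these shifts was not tested.

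Leaving out 1 library at a time gave, in total RNA, 13 to 61 members called for the IGF2BP1, 35 to 70 for the IGF2BP2 and 18 to 59 for the IGF2BP3 knockout, 20 to 63 for IGF2BP3 against IGF2BP2 and 0 to 46 for the control batches. In nuclear RNA the ranges were 23 to 32, 25 to 49 and 22 to 47, and 32 to 55 for IGF2BP3 against IGF2BP2. In cytoplasmic RNA they were 28 to 40, 64 to 74 and 55 to 62, 55 to 64 for IGF2BP3 against IGF2BP2 and 62 to 71 for batch 5. The ratios gave 0 to 20, 2 to 23 and 0 to 7, and the control fractions 42 to 54. Limma on FPKM was not run for control nuclear against cytoplasmic RNA, whose tables were normalised separately. Each knockout had 1 clone, with 2 libraries per RNA kind in batches 1 to 4.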
